A study of Sus scrofa with 92 samples.

Results

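The heart of the pig was compared with every other single tissue of a panel of 10 breeds sampled at 60 days of age. Its members were the 9 libraries labelled heart, of 83 single-tissue libraries and 92 libraries in all. Hearts were available from Berkshire, Hampshire, Landrace, Large White and Piétrain, which are Western breeds, and from Bamei, Jinhua, Meishan and Rongchang, which are Chinese breeds. The other libraries were 9 of liver, 10 of spleen, 8 of lung, 9 of kidney, 9 of subcutaneous adipose, 9 of ovary and 20 of skeletal muscle, the last made up of psoas major and longissimus dorsi. Lung was missing for Rongchang, and the tenth breed, Tibetan wild boar, contributed only spleen and the 2 muscles. The 9 mixtures of tissues were left out. No animal carried a named allele or received a named treatment, and all groups shared the same age. Total RNA was sequenced on an Illumina instrument, with 1 library per breed and tissue. The labels do not name the chamber of the heart that was taken, nor the number of animals behind the tissues of a breed, nor any pooling. The breeds are therefore the replicates, and p-values measure the spread between these libraries, pooled over all tissues.

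Heart muscle cells contract without rest through sarcomeres, in which myosin thick filaments pull on actin thin filaments when calcium binds troponin. They are coupled end to end at intercalated discs, where gap junctions pass the electrical impulse and desmosomes and cadherins carry the force. The heart burns mainly fatty acids, together with lactate, ketone bodies and glucose, in densely packed mitochondria, and it secretes natriuretic peptides. Cardiac and skeletal muscle share many of these parts but use different gene copies for some of them.

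Levels are given as FPKM (fragments mapped to a gene, relative to its length and to the mapped fragments of the library) after scaling between libraries, called scaled FPKM, as mean ± SD over the 9 hearts. Differences are heart minus another tissue on the log2(scaled FPKM + 1) scale with their standard error, a scale that understates the change of genes with low levels. The standard error uses a spread per gene pooled over all tissues. Both it and the p-value can be too small for genes that vary between hearts and lie near 0 elsewhere. Psoas major and longissimus dorsi were treated as 1 class, so heart had 7 other classes, of which 6 were organs without striated muscle. A gene was called when the limma p, adjusted over all 17207 genes tested, was below 0.05 against every class in question and every log2 difference was above 1. Genes tested had 1 FPKM or more in at least 3 libraries. Those near 0 in every other tissue met this through the hearts alone, so their p-values add no support beyond the levels. The hearts resembled each other closely, with a median Spearman correlation over genes of 0.960, against 0.875 with psoas major, 0.870 with longissimus dorsi, 0.826 with subcutaneous adipose, 0.769 with lung, 0.760 with spleen, 0.734 with kidney, 0.724 with ovary and 0.693 with liver. Between 11299 and 12016 gene IDs reached 1 FPKM in a heart. A single gene ID without a symbol held 52.6% of all FPKM in the Large White heart and 32.8% in the Jinhua heart, and was listed at 0 in the other 7 hearts. Scaling by median ratios gave these 2 hearts factors of 0.941 and 0.785, against 0.744 to 0.882 for the others. Without them 238 genes were called over the 7 classes, against 236 with them.

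The 4 heart markers held in every heart. TNNT2 (ENSSSCG00000023031), the cardiac troponin T that anchors the troponin complex to the thin filament, ran from 4591 to 6488 scaled FPKM over the 9 hearts with a median of 5259. No other library exceeded 50.5, the value of the Meishan longissimus dorsi, and the difference to the nearest class, skeletal muscle, was 8.71 ± 0.26 (limma adjusted p 1.6e-41). MYBPC3 (ENSSSCG00000013236), the cardiac myosin-binding protein C of the thick filament, ran from 627 to 1018 with a median of 687. Its next highest library was the Jinhua ovary at 21.8, and ovary was the nearest class at 12.1, a difference of 6.01 ± 0.13 (limma adjusted p 2.0e-50). RYR2, the calcium release channel of the cardiac sarcoplasmic reticulum, lay between 54.9 and 89.3 with a median of 73.1, and its nearest class, kidney, averaged 1.68 (difference 4.72 ± 0.10, limma adjusted p 1.3e-51). NPPB, the B-type natriuretic peptide, spread far more widely, from 4.45 in Landrace to 436 in Berkshire with a median of 49.1. It was listed at 0 in all libraries of liver, kidney and skeletal muscle, and the highest library outside heart was the Large White lung at 1.51. For these 4 genes the lowest heart stood above the highest library of any other tissue. Markers of skeletal muscle went the other way: MYOD1 and MYF6, which start and keep the skeletal muscle program, were listed at 0 in all 9 hearts, and the 5 measured markers summed to 2.16 to 15.3 scaled FPKM in hearts against 13996 to 70997 in skeletal muscle. In these data a listed 0 need not mean a low level, as with ALB in liver, described below.

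In all, heart exceeded all 7 other classes in 236 genes (1.37% of those tested), and 147 of them carried a symbol. Skeletal muscle was the nearest class for 71, ovary for 55, kidney for 29, lung for 25, subcutaneous adipose for 23, spleen for 22 and liver for 11. In 201 of the 236, heart was the highest tissue in every breed with a heart, which held for 337 (1.96%) of all genes, and in 154 the lowest heart exceeded the highest library outside heart. The median of the smallest log2 difference was 1.79, with 92 genes above 2 and 40 above 3. When muscle was set aside, 700 genes (4.07%) exceeded every one of the 6 non-muscle organs, 432 of them with a symbol. The organ nearest to heart was subcutaneous adipose for 163, liver for 139, ovary for 136, kidney for 129, lung for 76 and spleen for 57. Pairwise, counting genes past a log2 difference of 1, heart was higher than spleen in 2582 genes and lower in 2241, and against ovary it was higher in 2230 and lower in 3177. Subcutaneous adipose gave the fewest differences of this size, 1669 higher and 1681 lower. The 5 measured skeletal muscle markers had a median sum of 64.9 scaled FPKM in its libraries, and of 6.84 or less in the other organs. Whether muscle RNA in the adipose libraries added to their closeness to heart was not tested. In whole-tissue RNA a lower level can come from fewer cells of a type or from less RNA per cell, and these cannot be told apart.

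**Figure D1:**
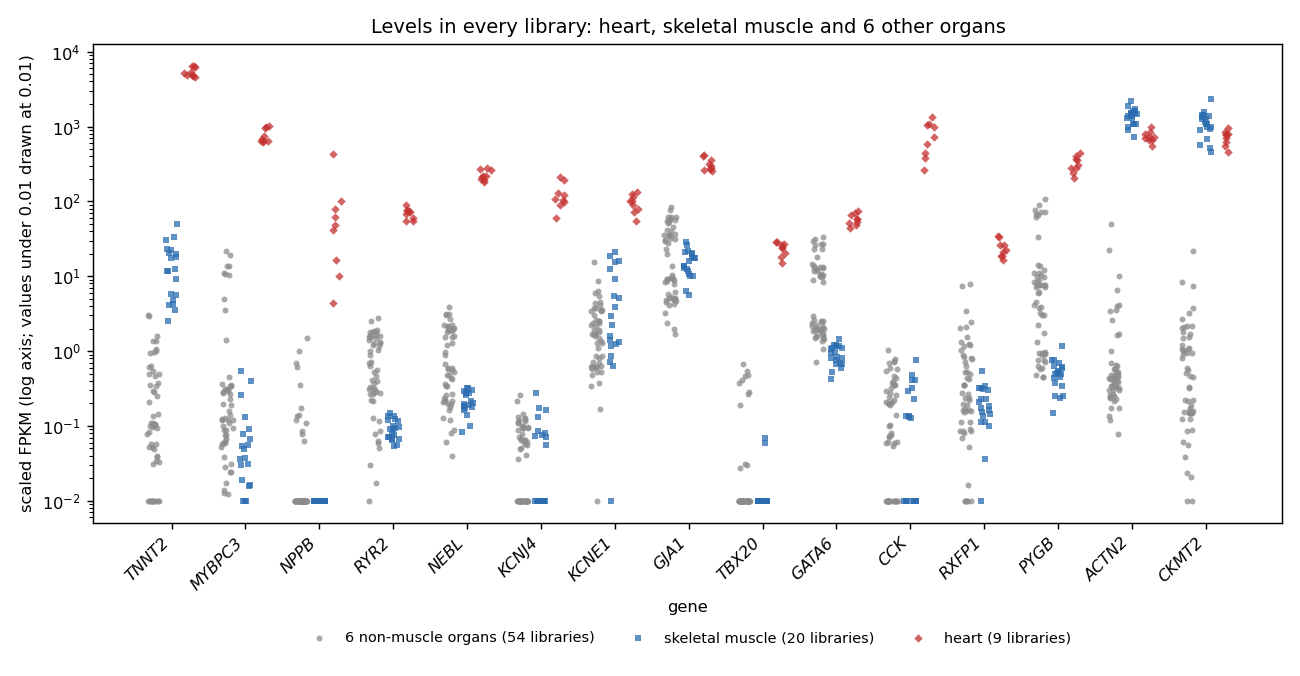
Scaled FPKM (log axis, values below 0.01 drawn at 0.01) of 15 genes in each of 54 organ, 20 skeletal muscle and 9 heart libraries, 1 point per library. TNNT2, MYBPC3, KCNJ4 and CCK separate the hearts from both other sets, while ACTN2 and CKMT2 separate heart and muscle from the organs, and NPPB spreads over the hearts from 4.45 to 436.

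Thick filament genes formed the group with the largest differences to the organs: all 7 measured members of the 13 listed were above the mean of the 6 organs, with a median difference of 7.29, against a median of -0.18 over all genes and 28.6% of all genes higher. Each of the 7 was also called over every organ, and 5 over all 7 classes. Of all genes 4.07% and 1.37% were so called, and 49.9% were lower than the organ mean. These shares of all genes apply to every list below. MYL3, the essential light chain of the ventricle and of slow muscle, had 9489 ± 1426 scaled FPKM in heart, 2025 in skeletal muscle and at most 13.8 in an organ mean. MYH6, the alpha myosin heavy chain, had 4554 ± 707 in heart and 1524 in muscle (difference 1.84 ± 0.23, limma adjusted p 6.0e-10), although the Tibetan wild boar psoas major, at 4444, reached into the range of the hearts. The near-identical beta heavy chain had no ID with a symbol here, so how reads were shared between the 2 genes is uncertain. MYL4, the atrial essential light chain, ranged from 10.1 to 128 with a median of 56.1 between hearts and averaged 1.43 in muscle. MYOM1 and MYOM2, which crosslink myosin at the M line, were called over the organs but not over muscle, where MYOM1 averaged 292 against 181 ± 19.5 in heart.

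Among 10 measured thin filament genes of 13 listed, 9 were higher than the mean of the organs (median difference 6.64), all 9 were called over each organ, and 4 over all 7 classes. Besides TNNT2, ACTC1, the cardiac actin, ran from 2580 to 9442 with a median of 7015, and its nearest class, muscle, had a mean of 526 (difference 4.32 ± 0.45, limma adjusted p 2.3e-12). ACTC1 and ACTA1, the skeletal actin, are near-identical copies between which the counting could divide reads, and ACTA1 was listed at 0 in 15 of 20 muscle libraries while reaching 59426 in the Hampshire psoas major. ACTA1 passed the rule with a difference of 5.12 ± 1.67 to subcutaneous adipose (limma adjusted p 3.3e-02), but not after quantile normalization, with a pseudocount of 0.1, in the 8 breeds with all tissues, without Berkshire, Landrace, Large White or Rongchang in turn, or without the Large White and Jinhua hearts. NEBL, the cardiac nebulin relative nebulette, lay between 181 and 280 with a median of 216 in heart, where the highest other library was the Landrace spleen at 3.85. NEB itself, the giant ruler of the skeletal thin filament, had 0.851 ± 0.787 in heart and 640 in muscle. TNNC1, the troponin C of heart and slow muscle, had 9582 ± 893 in heart and 4866 in muscle, and its call over muscle ended when psoas major and longissimus dorsi were separate classes (difference 0.98). TNNI1, the troponin I of slow skeletal muscle, had 95.8 ± 57.7 in heart, above every organ mean (at most 19.8, in subcutaneous adipose) and below the 2298 of muscle. TPM1 fell by 1.22 ± 0.24 against muscle (limma adjusted p 1.1e-05) while exceeding every organ by at least 5.12.

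All 14 measured Z disc genes of 19 listed were above the organ mean (median difference 4.96) and 12 were called over each organ, and 3 over all 7 classes: CSRP3, ANKRD1 and PDLIM5. PDLIM5, a PDZ and LIM domain protein, passed narrowly, by 1.01 against muscle, and lost its call with the muscles as separate classes, without Berkshire, Jinhua, Meishan or Tibetan wild boar in turn, and without the Large White and Jinhua hearts. ANKRD1, a stretch-responsive ankyrin repeat protein of the sarcomere, varied between hearts from 757 to 3069 with a median of 1226, and was highest in heart in 8 of 9 breeds, since the Piétrain longissimus dorsi reached 2374. CSRP3, the muscle LIM protein, had 999 ± 234 in heart and 477 in muscle and was highest in heart in 7 of 9 breeds. TCAP, ACTN2, DES and SYNPO2L, which hold the Z disc together and tie it to the cell, were called over every organ and not over muscle. ACTN2, the alpha-actinin that crosslinks actin there, had 739 ± 126 in heart, 1380 in muscle and 11.6 in the highest organ mean, and DES, the intermediate filament desmin, had 2021 ± 545, 3211 and 82.8. At the sarcolemma, all 7 measured genes of 15 listed were called over each organ (median difference to the organ mean 4.32). POPDC2, a cyclic AMP binding membrane protein, was the member called over all 7 classes, with 87.3 ± 19.7 in heart and 30.8 in muscle, while its relatives BVES and POPDC3 had 37.2 ± 6.21 and 37.2 ± 6.17 in heart and 22.1 and 63.1 in muscle. SGCA, the alpha-sarcoglycan of the dystrophin complex, fell by 1.18 ± 0.15 against muscle (limma adjusted p 1.0e-10).

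Calcium handling genes were divided. Of 13 measured among 22 listed, 9 were higher and 3 lower than the organ mean (median difference 2.96), 8 were called over each organ, and RYR2, CACNB2 and CAMK2D over all 7 classes. Of all genes 28.6% were higher, 49.9% lower, 4.07% called over each organ and 1.37% over all 7 classes. CAMK2D, the calmodulin-dependent kinase of heart muscle, had 254 ± 39.7 in heart and 66.7 in muscle, its nearest class, with a difference of 1.99 ± 0.12 (limma adjusted p 2.8e-23). SRL, HRC, TRDN and JPH1 belong to the membrane junctions and the store of calcium, and each was called over the organs. HRC had 119 ± 9.81 in heart and 161 in muscle, and TRDN, the triadin that sits beside the release channel, had 69.4 ± 13.9 and 384. ATP2A1, the calcium pump of fast skeletal muscle, was nearly absent from heart, at 0 to 0.757 with a median of 0.0262 against 3073 in muscle. The cardiac pump and its inhibitor phospholamban had no ID with a symbol, so the cardiac side of this pair was not analysed here.

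Ion channels supplied some of the sharpest contrasts. Of 18 tested among 31 listed, 10 were higher and 4 lower than the organ mean (median difference 1.11), and 6 were called over all 7 classes. The shares of all genes were 28.6%, 49.9% and 1.37%. KCNJ4, an inward rectifier potassium channel, lay between 60.0 and 214 with a median of 106 in heart. No library outside heart exceeded 0.276, and the difference to lung, the nearest class, was 6.74 ± 0.10. KCNJ4 passed the filter of 1 FPKM in 3 libraries through the hearts alone, so no p-value is given for it. KCNE1, the auxiliary subunit of the slow delayed rectifier, had 97.2 ± 25.7 in heart, with spleen nearest at 5.16 and the Jinhua psoas major the highest other library at 21.2. KCNIP2, which sets the transient outward current, had 24.5 ± 11.2 and ranged between hearts from 8.57 in Large White to 41.5 in Rongchang. KCNH2, the rapid delayed rectifier, had 32.5 ± 8.05 in heart and 10.4 in ovary, and lost its call with FPKM as deposited. KCNJ5, a subunit of the channel opened by acetylcholine, ran from 21.4 to 45.3 with a median of 31.2 and was highest in heart in 8 of 9 breeds, the exception being Meishan, whose ovary had 24.3. Ovary or kidney was thus the nearest class for KCNH2 and KCNJ5, and not skeletal muscle, where these 2 genes averaged 3.24 and 0.0187.

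The intercalated disc also set heart apart from both organs and muscle. Of 11 measured genes of 14 listed, 9 were above the organ mean (median difference 1.24), 7 were higher than muscle by more than 1 (5.34% of all genes were), none was lower, and 5 were called over all 7 classes. CDH2, the N-cadherin of the adherens junction, had 471 ± 53.9 in heart, 138 in spleen, 93.1 in liver and 2.38 in muscle. PKP2, a desmosomal plaque protein, lay between 57.0 and 75.6 with a median of 62.4, and liver, the nearest class, averaged 6.76 (difference 3.13 ± 0.13, limma adjusted p 5.4e-32). DSP and DSC2, desmoplakin and desmocollin 2, had 42.8 ± 6.93 and 32.4 ± 3.29 in heart, with liver nearest at 10.7 and 13.8, and 0.342 and 0.0808 in muscle. GJA1, connexin 43, the main gap junction protein of the ventricle, lay between 258 and 422 with a median of 299, and the highest other library was the Rongchang subcutaneous adipose at 83.1. VCL, vinculin, was above the organ mean by 1.24 ± 0.12 and was not called over every organ. With FPKM as deposited, 7 members were higher and 2 lower than the organ mean.

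Of 20 measured cardiac transcription factors of 27 listed, 14 were higher than the organ mean and 6 lower (median difference 1.61). Of all genes 28.6% were higher, 49.9% lower and 1.37% called over all 7 classes. Being higher than the mean of the organs did not make a factor a heart gene here: 3 of the 20 were called over all 7 classes. TBX20, a T-box factor of heart muscle, came closest to heart alone, at 15.1 to 28.9 with a median of 24.8, against 0.408 in liver and at most 0.00642 in any other class mean (difference to liver 4.11 ± 0.06, limma adjusted p 3.6e-63). GATA6 had 58.4 ± 10.3 in heart and 26.6 in ovary, a difference of 1.11 ± 0.10 (limma adjusted p 8.3e-15) that did not pass with FPKM as deposited or quantile normalization. IRX4, a ventricular homeobox factor, had 7.10 ± 1.57 in heart and 1.46 in lung. GATA4 was shared with the ovary, at 26.3 ± 4.37 in heart and 29.2 in ovary, and liver had 12.1, while GATA5 was at most 0.289 in any heart. TBX5 was shared with the lung, at 19.8 ± 5.49 and 18.7, and was at or below 1.08 in the other class means. HEY2, a Notch target of the ventricle, had 34.9 ± 24.5 in heart, with a value of 97.8 in Piétrain, and 19.7 in ovary. SMYD1, a methyltransferase of striated muscle, had 93.8 ± 28.5 in heart and 84.0 in muscle and was called over every organ. For GATA4, TBX5 and HEY2 the difference to the nearest organ was -0.15, 0.04 and 0.62, none past the rule. FPKM were divided by scaling factors of 0.744 to 0.941 in heart, 1.54 to 1.67 in ovary and 1.46 to 1.54 in lung. The levels of GATA4 and TBX5 set beside ovary and lung are after this scaling, which raised heart against both.

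Of 9 measured secreted factors of 15 listed, 4 were called over all 7 classes, against 1.37% of all genes. They were CCK, NPPB, CORIN and METRNL, and METRNL lost its call with FPKM as deposited. CCK, which encodes the peptide hormone cholecystokinin known from gut and brain, ran from 259 to 1324 with a median of 716 over the hearts. No other library exceeded 1.03, and the difference to spleen, the nearest class, was 8.79 ± 0.15 (limma adjusted p 5.3e-57), the largest among genes with a symbol. CORIN, the protease that activates natriuretic peptides, had 16.8 ± 7.49 in heart and 3.06 in liver, its nearest class. METRNL, a secreted meteorin-like protein, had 60.7 ± 13.6 in heart, 28.6 in muscle and 20.9 in subcutaneous adipose. MSTN, myostatin, the brake on muscle growth, had 1.80 ± 0.825, above each organ and below the 11.3 of muscle. FGF1, an acidic fibroblast growth factor, was called over all 7 classes with 44.2 ± 8.54 in heart and 3.21 in muscle. On the receptor side 8 of 15 measured genes of 18 listed were higher than the organ mean and 4 lower, with a median difference of 0.60, and with FPKM as deposited 7 were higher and 6 lower. In the main fit 28.6% of all genes were higher and 49.9% lower. RXFP1, the relaxin receptor, lay between 16.3 and 34.2 with a median of 22.2, and the Hampshire lung was the highest other library at 7.95. EDNRA, the endothelin receptor type A, was among the least variable of the called genes with a symbol, at 39.0 to 51.0 with a median of 46.1. Lung came nearest at 9.69 (difference 2.13 ± 0.14). ADRB1, the main beta-adrenergic receptor of the heart, had 41.8 ± 6.98 but was not called over spleen, which had 24.2.

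**Figure D2:**
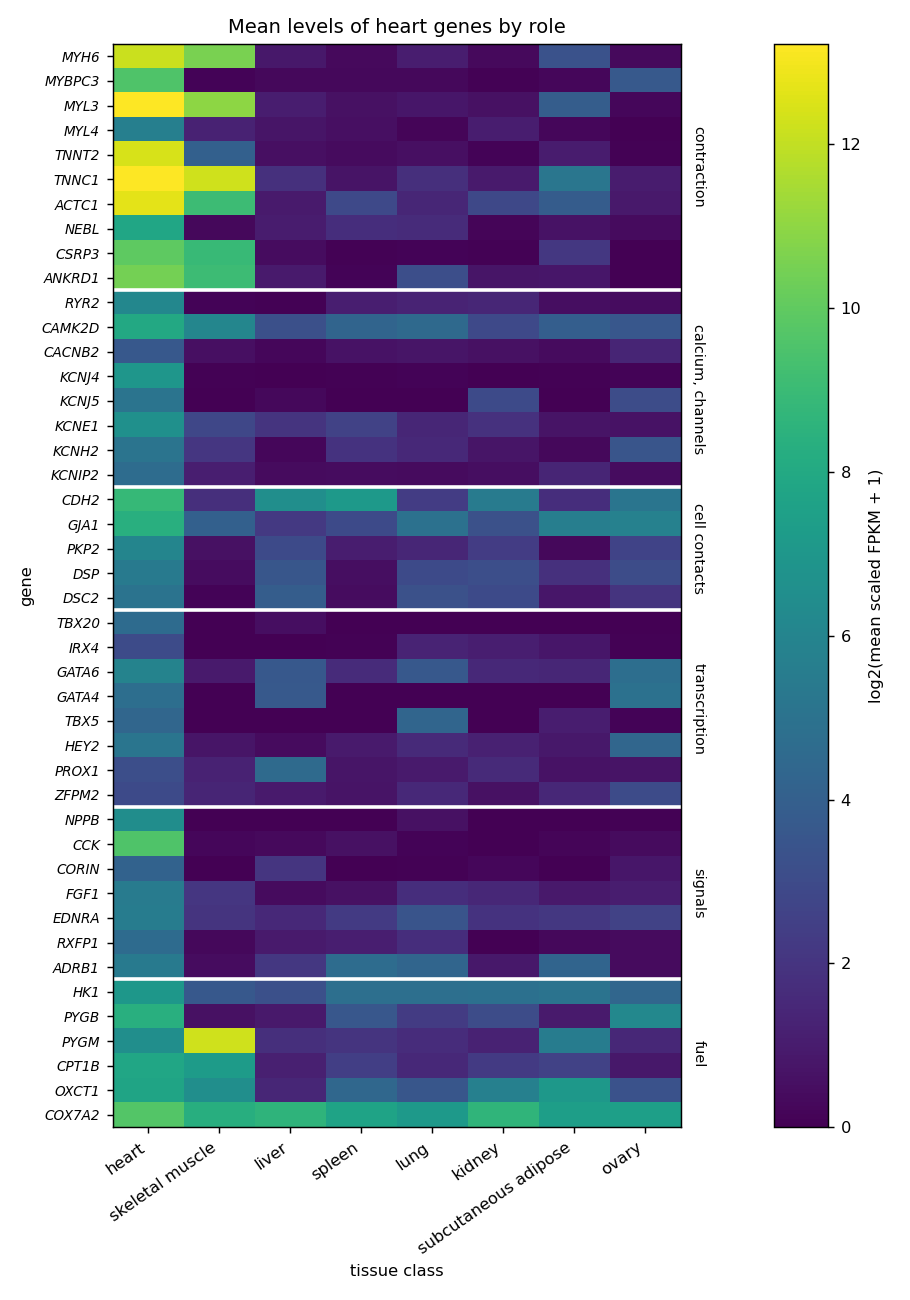
Mean level, as log2(mean scaled FPKM + 1), of 44 genes ordered by role (rows) in heart and the 7 other classes (columns), on a colour scale from purple (0) to yellow (highest). Sarcomere rows are high in heart and muscle, KCNJ4, CCK, TBX20 and NEBL have their bright cell in the heart column alone, and GATA4, TBX5 and HEY2 are also high in ovary or lung.

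The remaining genes with the largest margins over all 7 classes had varied roles. SERPINB2, a plasminogen activator inhibitor, lay between 43.9 and 155 with a median of 69.3, and no other library exceeded 1.18 (difference 6.06 ± 0.11, limma adjusted p 8.7e-55). RNF207, a ubiquitin ligase linked to the cardiac action potential, had 45.8 ± 11.8 in heart and at most 2.74 in another library. TECRL, an endoplasmic reticulum protein linked to inherited arrhythmia, had 245 ± 51.5 in heart, and muscle came nearest at 22.7. TSPAN12, a membrane tetraspanin, had 411 ± 124 and NCEH1, a cholesterol ester hydrolase, 96.4 ± 12.5, with smallest differences of 3.43 ± 0.19 and 3.16 ± 0.15. NDRG4, LIX1, LNP1 and ATP4B had lower levels, with means of 18.0, 22.6, 24.3 and 10.5 in heart, and none exceeded 1.65 in a library of another tissue. ATP4B encodes the beta subunit of the gastric proton pump and was highest in heart in all 9 breeds. The largest margin of all belonged to a gene ID without a symbol, ENSSSCG00000016752, at 2692 ± 1012 in heart.

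Of the 700 genes above every organ, 236 (33.7%) were also higher than in skeletal muscle by the same rule, 371 (53%) were neither higher nor lower, and 93 (13.3%) were lower. The neither group does not show equal levels, since a gene with a smaller difference also falls into it. Its genes with the largest margins over the organs were CKMT2, TCAP, ACTN2, MYOM2, SMYD1, LMOD2, SYNPO2L, TRIM63, ART3, SRL, MYOM1 and HHATL. TRIM63, the muscle ubiquitin ligase MuRF1, had 219 ± 62.5 in heart and 334 in muscle, and LMOD2, which lengthens thin filaments, had 236 ± 50.3 and 486. Genes above the organs yet lower than muscle included DHRS7C, ENO3, TPM1, PDE4DIP, NRAP, FITM1, KLHL31, MYOT, TRDN, ASB2, ANKRD23 and PGAM2. MYOT, the Z disc protein myotilin, fell by 3.16 ± 0.20 against muscle, and ENO3, the muscle enolase, by 2.92 ± 0.34 (limma adjusted p 4.1e-23 and 1.2e-11). The Meishan subcutaneous adipose library held the highest organ value of each of these 24 genes, and its skeletal muscle markers summed to 2180 against a median of 64.9 for subcutaneous adipose. Without that library, 700 genes were called over the organs and 95 of them were lower than muscle.

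**Figure D3:**
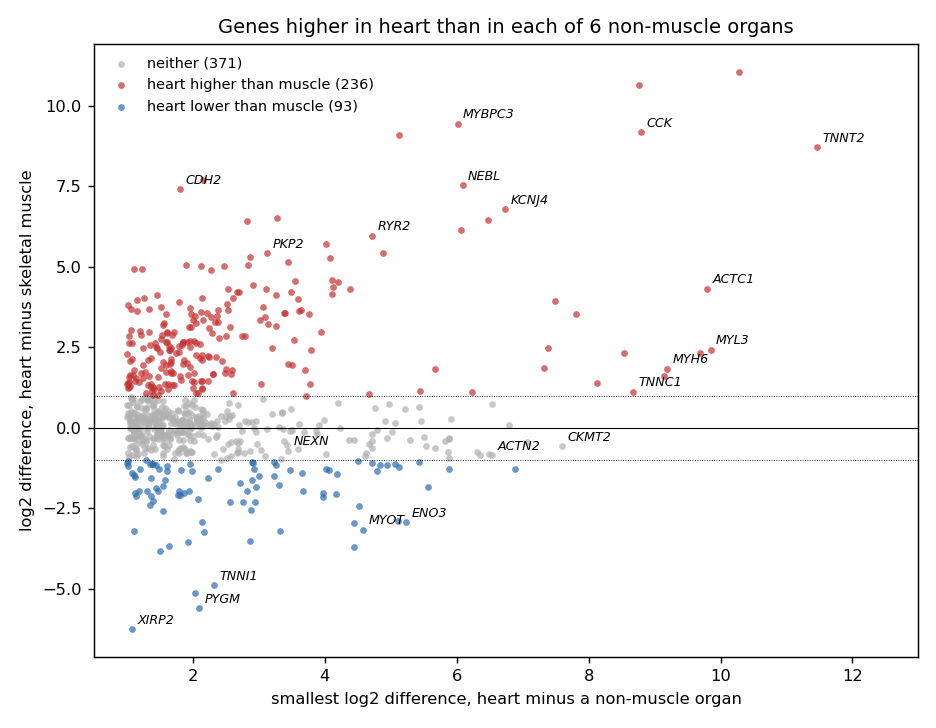
The 700 genes above every non-muscle organ, 1 point per gene: smallest log2 difference of heart to an organ (horizontal) against the log2 difference of heart to skeletal muscle (vertical), with dotted lines at 1 and -1. Red points (236) are higher than muscle, grey (371) neither and blue (93) lower, and large margins over the organs occur in all 3 sets.

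Of 21 tested genes of fatty acid uptake and oxidation among 28 listed, 19 were higher than the organ mean and 2 lower (median difference 1.56), none was called over all 7 classes, and 5 were called over each organ, against 28.6% of all genes higher and 4.07% called over each organ. With FPKM as deposited, 2 were called over all 7 classes and 3 over each organ. CPT1B, the muscle form of the enzyme that commits fatty acids to the mitochondrion, had 223 ± 46.7 in heart, 151 in muscle and at most 5.17 in an organ mean (difference to subcutaneous adipose 5.22 ± 0.15, limma adjusted p 8.5e-44). It made up 87.2% ± 2.42 of CPT1A and CPT1B together in heart and 83.9% ± 4.31 (SD, n = 20 libraries of 10 breeds) in muscle, and 9.37% or less in the organ means. HADHA and HADHB, the trifunctional protein of beta-oxidation, had 419 ± 93.2 and 310 ± 62.0 in heart against 201 and 105 in liver, the nearest organ. ACAA2 and CPT1A had means of 345 and 236 in liver and of 201 ± 34.8 and 32.0 ± 5.64 in heart. Of 10 measured genes for the use of ketone bodies and branched-chain amino acids, 8 were higher than the organ mean (median difference 1.23), and with FPKM as deposited 6 were higher and 2 lower. OXCT1, the enzyme that activates ketone bodies, had 209 ± 32.6 in heart, 132 in subcutaneous adipose, 90.3 in muscle and 1.69 in liver. BDH1, which makes or uses hydroxybutyrate, had 19.4 ± 6.80 in heart and 96.4 in liver. Of 7 measured genes of creatine and adenylate energy transfer among 9 listed, 4 were higher and 3 lower than the organ mean. Of all genes 28.6% were higher and 49.9% lower. CKMT2, the mitochondrial creatine kinase of striated muscle, and SLC25A4, the adenine nucleotide carrier, had 723 ± 155 and 2560 ± 502 in heart and 1138 and 2665 in muscle. GATM and GAMT, the pair that makes creatine, were low in heart at 1.36 ± 0.464 and 3.47 ± 0.857, against 361 and 749 in liver.

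Glycolytic genes placed heart between the organs and skeletal muscle. Of 24 measured genes of 27 listed, 19 were higher than the organ mean and 3 lower (median difference 1.55), whereas against muscle 13 were lower and 6 higher, with 5.77% of all genes lower and 5.34% higher. GAPDH had 7200 ± 1080 in heart, 38538 in muscle and at most 1063 in an organ mean, and PFKM, the muscle phosphofructokinase, had 290 ± 71.8, 1276 and 14.9. LDHA, which favours lactate formation, had 87.6 ± 36.5 in heart and 4539 in muscle and did not pass against the organ mean. HK1 and PYGB were the members called over all 7 classes. HK1, the hexokinase of tissues that use glucose steadily, had 127 ± 22.7 in heart, 31.7 in subcutaneous adipose and 11.7 in muscle. PYGB, the brain form of glycogen phosphorylase, lay between 204 and 449 with a median of 310, and ovary came nearest at 72.1 (difference 2.16 ± 0.13, limma adjusted p 5.7e-24). As a share of the 3 phosphorylase genes, PYGB made up 74.2% ± 6.95 in heart, 73.1% ± 5.48 (SD, n = 9) in ovary and 0.0155% in muscle, where PYGM made up 99.7%. Enolase took the muscle form in heart, since ENO3 was 97.1% ± 0.625 of ENO1 and ENO3 together, and phosphoglycerate mutase was mixed, with PGAM2 at 61.4% ± 8.32 of PGAM1 and PGAM2 together and 99.2% in muscle. Heart thus shared CPT1B and ENO3 with muscle as the main form in these pairs. Its main phosphorylase was PYGB, while PYGM, the main form of muscle, made up 21.3% ± 6.57 in heart.

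Mitochondrial genes were high in heart and muscle alike. All 22 measured genes of the tricarboxylic acid cycle and pyruvate dehydrogenase, of 25 listed, were above the organ mean (median difference 2.11), 10 were called over each organ, and none differed from muscle by more than 1. GOT1 of the malate-aspartate shuttle, MDH1, MDH2, IDH2 and SUCLA2 were among those with the largest differences to the organ mean. MDH2 had 513 ± 69.8 in heart, 512 in muscle and 206 in liver. For the nuclear genes of the respiratory chain, all 30 measured of 55 listed were above the organ mean (median difference 2.61), against 29 above and 1 below under either other scaling, and 27 were called over each organ. Kidney or liver was the nearest organ for ATP5MC1, NDUFA4, CYCS, COX5A, UQCRFS1 and UQCRQ. NDUFA4 had 4213 ± 569 in heart, 3218 in muscle and 745 in liver (difference to liver 2.49 ± 0.10, limma adjusted p 1.5e-34). COX7A2, the widespread form of a cytochrome oxidase subunit, was the one member called over all 7 classes, at 825 ± 144 in heart, 407 in kidney and 318 in muscle, a difference to kidney of 1.01 ± 0.13 that no longer passed without Landrace, Piétrain or Bamei. Of the 13 protein genes of the mitochondrial genome, 9 were higher than the organ mean and called over each organ, with 1 so called after quantile normalization. Among the 9 was ND1 at 13353 ± 4416 in heart, 13770 in muscle and 3368 in liver. The other 4, COX1, COX3, ATP6 and ATP8, were listed at 0 in 3 hearts each and at 28398 FPKM or more in the remaining hearts, so no mean is given for them. COX1 was at 0 in Landrace, Bamei and Meishan, and COX3, ATP6 and ATP8 in Hampshire, Landrace and Bamei. The 13 genes held between 13.8% and 40.9% of all FPKM in a heart, but the lowest share was that of the Large White heart, with its dominant gene ID, and was 29.1% without that ID. The next lowest, 19.2% to 21.2%, were those of Bamei, Landrace and Hampshire, in which COX3, ATP6 and ATP8 were listed at 0. The 9 genes never listed at 0 in a heart held 12.03% to 19.3% of the FPKM outside the dominant ID. Among regulators of this program PPARGC1A had 21.5 ± 8.92 in heart, 29.3 in muscle and 14.4 in kidney, and ESRRA had 86.5 ± 12.6, 82.9 and, in liver, 45.3. Of 8 measured regulators of 10 listed, 6 were higher than the organ mean, and PPARGC1B was the one called over each organ.

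Few genes had their lowest level in heart. By the mirrored rule 10 genes (0.0581%) were below all 7 classes, 8 of them with a symbol, and in all 8 heart was the lowest tissue in 9 of 9 breeds, which held for 98 (0.57%) of all genes. ALDH2, the mitochondrial enzyme that clears acetaldehyde, lay between 2.41 and 5.85 with a median of 3.95 in heart, while no other library was below 9.90 and liver averaged 643. Against spleen, the nearest class at 15.5, it fell by 1.74 ± 0.19 (limma adjusted p 5.4e-12). ANPEP, a membrane aminopeptidase, had 0.829 ± 0.390 in heart, 5.21 in muscle and 256 in kidney, and C4A, a complement component, had 3.61 ± 2.65 in heart, 11.7 in muscle and 493 in liver. HOXB4, a homeobox factor of trunk position, was at most 0.646 in any heart and at least 1.47 in every other library. SULT1A3, from a family of near-identical sulfotransferases, and CNTFR, a cytokine receptor subunit, had 3.04 ± 1.03 and 1.17 ± 0.190, and neither passed with FPKM as deposited. DIAPH1, a formin that assembles actin, had 4.43 ± 0.676 in heart and at least 8.15 in every other library. STIM1, the sensor of calcium stores, had 3.31 ± 0.584 in heart, 7.60 in ovary and 26.1 in muscle, and its difference of -1.01 fell short of the rule after quantile normalization and without Berkshire, Hampshire, Landrace or Bamei in turn. The count of genes lowest in heart moved with the scale, to 18 with FPKM as deposited and 47 with a pseudocount of 0.1. More widely, 8589 genes (49.9%) were lower and 4921 (28.6%) higher than the mean of the organs at an adjusted p below 0.05, without a minimum difference. Of all such calls 36.4% were higher in heart, against 18.1% with FPKM as deposited, where the median difference over all genes moved from -0.18 to -0.48.

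Markers of other cell types gave a view of what else the hearts held. Endothelial markers were above the organ mean in 5 of 6 measured genes (median difference 0.73), and with FPKM as deposited in 3, with 1 lower. PECAM1, a junction protein of vessel lining, had 92.2 ± 6.56 in heart, 127 in lung and 182 in subcutaneous adipose, and the 6 markers summed to 153 to 186 scaled FPKM over the 9 hearts. Matrix genes of fibroblasts summed to 1034 to 1677, and DCN and LUM passed as higher than the organ mean, although each was highest in subcutaneous adipose. Smooth muscle genes were lower in 5 of 6 (median difference -0.49), with ACTA2 at 64.5 ± 11.5 in heart and 318 in spleen, and CNN1 reached 214 in Berkshire against a median of 34.1 in the other hearts. Epithelial markers were lower in all 8 tested (median difference -2.57): EPCAM, an adhesion protein of epithelia, was at most 0.291 in a heart and averaged 112 in kidney. Lymphocyte genes were lower in all 6 (median difference -1.14) and summed to 2.76 to 28.5 in hearts, highest in Meishan. Their median sum was 8.86 in heart, 6.05 in muscle, 8.41 in subcutaneous adipose and at most 11.3 in kidney and ovary. It was 18.5 in liver, 38.4 in lung and 329 in spleen. Of 5 macrophage genes 3 were lower, against 49.9% of all genes, CD68 with 9.37 ± 3.68 in heart and 131 in spleen. The median macrophage sum of 51.5 in heart lay above kidney (14.8), ovary (26.8) and muscle (36.3). It lay below subcutaneous adipose (140), spleen (258), lung (279) and liver (667). Hepatocyte markers summed to 30.9 to 64.0 in hearts and 24198 to 53730 in liver, although ALB, the albumin gene, was listed at 0 in all 9 liver libraries, so a listed 0 need not mean a low level. PLIN1, the lipid droplet coat of fat cells, was at most 4.45 in a heart and averaged 495 in subcutaneous adipose. The part of these cells in the differences above was not tested. Ribosomal protein genes were higher than the organ mean in 9 of 11 (median difference 0.27), a direction that turned with FPKM as deposited (median -0.24) and with quantile normalization (median -0.32). Cell division genes were lower in 6 of 12 and higher in 3, a division near that of all genes, 49.9% and 28.6%. Of the 3, CDK1 and CCNB1 lost their call with FPKM as deposited, without the breed term, and without Berkshire or Landrace. Of 10 immediate early and heat shock genes 3 were higher and 6 lower than the organ mean (median difference -0.63), against 28.6% and 49.9% of all genes, and without the breed term 4 were lower. Among the 3 were HSPB6 and HSPB8, small heat shock proteins of muscle called over each organ, with 57.1 ± 14.1 and 217 ± 42.7 in heart.

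Chamber markers were measured in part. Their comparison with other organs cannot tell which chamber was taken, since no library is labelled by chamber. All 5 measured ventricular markers of 9 listed were above the organ mean (median difference 5.31), MYL3, IRX4 and NPPB over all 7 classes. Of the 5, MYL3 and LMOD2 were also high in skeletal muscle. Of 5 measured atrial markers of 11 listed, MYL4 was higher, NR2F2 and MYBPHL were lower, and SLN and GJA5 did not pass. NR2F2, an atrial orphan receptor, had 6.14 ± 0.576 in heart, and MYBPHL was at most 0.125 in any heart. SLN, sarcolipin, an inhibitor of the calcium pump in atria, had 1.06 ± 0.663 in heart and 8017 in skeletal muscle. Of 7 tested conduction system markers 6 were lower than the organ mean (median difference -0.33) and GJC1 was higher, though not with FPKM as deposited. With quantile normalization 4 were lower. Of all genes 49.9% were lower and 28.6% higher. HCN4, the pacemaker channel, was at most 0.140 in any heart.

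**Figure D4:**
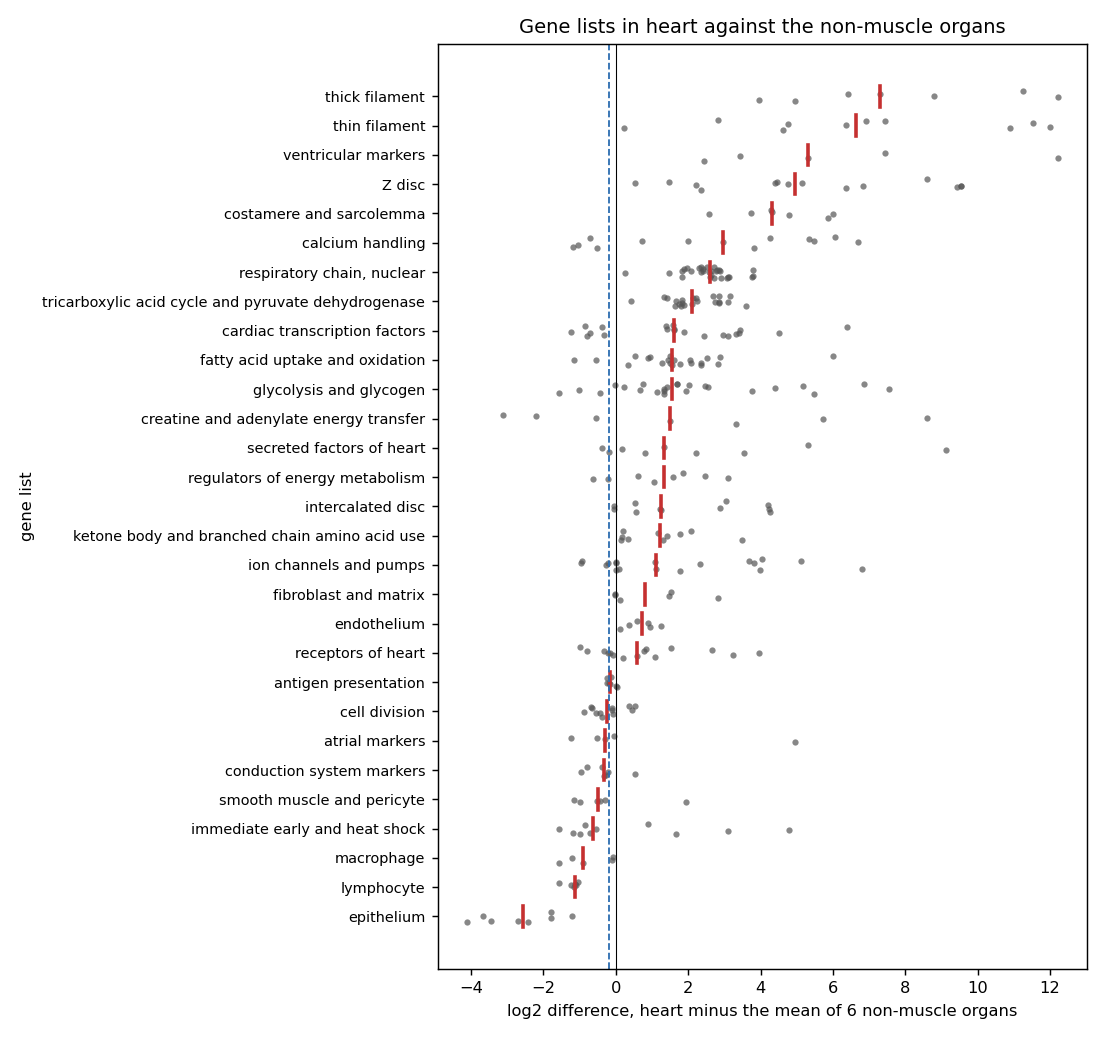
Log2 difference of heart to the mean of the 6 organs for every tested gene of 29 lists, 1 point per gene, with a red bar at each list median and a dashed line at the median of all genes, -0.18. Sarcomere lists lie farthest to the right (thick filament median 7.29), energy lists between 1 and 3, and epithelium farthest to the left (-2.57).

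Some of the genes called over all 7 classes differed widely between the hearts. Genes outside that set were not ranked by their spread. Among 220 called genes with at least 5 scaled FPKM, the median SD of the log2 level over hearts was 0.344, against 0.214 for all 7687 genes at that level. Of the called genes with a symbol at that level, NPPB varied most (SD of log2 1.88). It had 436 in Berkshire, 102 in Rongchang, 78.2 in Piétrain, 61.9 in Jinhua, 49.1 in Bamei, 41.5 in Meishan, 16.5 in Hampshire, 9.95 in Large White and 4.45 in Landrace. The 4 Chinese hearts lay between 41.5 and 102, and the 5 Western hearts held both the highest value and the 3 lowest. SMYD3, a methyltransferase whose call was lost with FPKM as deposited, as was that of MR1, had 91.6 in Piétrain, 73.1 in Rongchang and 63.3 in Berkshire and 7.25 to 19.7 in the other 6 hearts. MYL4 ranged from 10.1 to 128, and MR1, which presents vitamin metabolites to T cells, was 0.551 in Rongchang and 4.71 to 18.7 in the other hearts. GRIA1, a glutamate receptor subunit, and GNB3, a G protein subunit, had SDs of 0.95 and 0.84. At the other end CCDC141 (21.8 ± 1.97), EDNRA, TNNC1, DSC2 and STARD7 (133 ± 13.6) had SDs of 0.125 to 0.146. With 1 library per breed, breed, animal, sampling of the chamber and library cannot be told apart as sources of this spread.

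**Figure D5:**
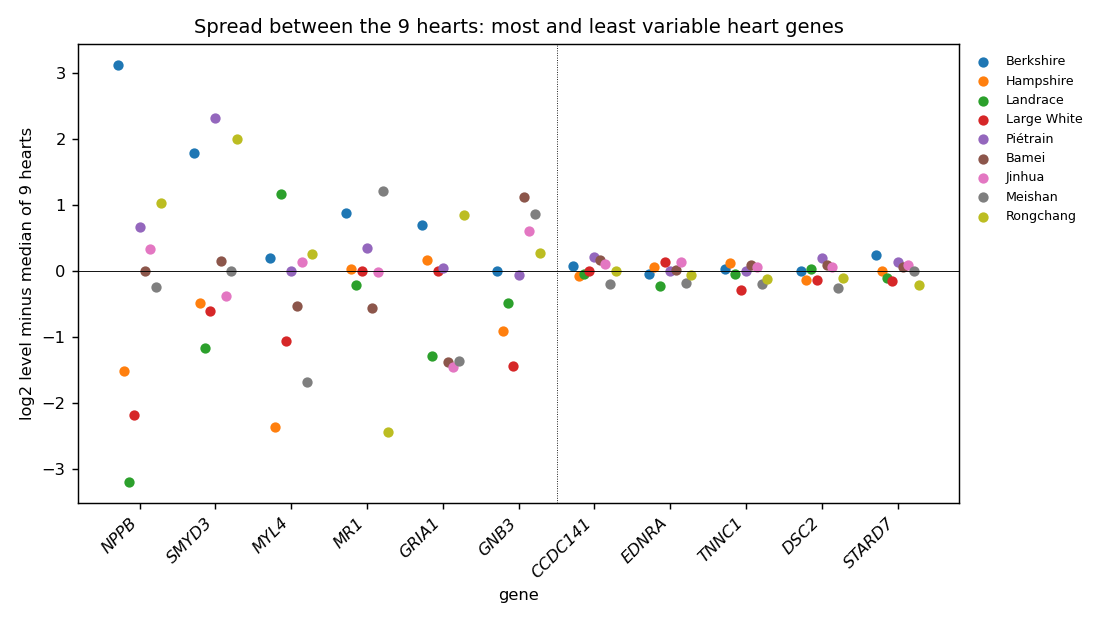
Log2(scaled FPKM + 1) of each of the 9 hearts minus the median of the 9, 1 coloured point per breed. Shown are the 6 most variable genes and 5 of the least variable among those with a symbol called over all 7 classes at 5 scaled FPKM or more. NPPB spreads most, from Landrace (4.45 scaled FPKM) to Berkshire (436), while EDNRA stays between 39.0 and 51.0.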

How the data were processed

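Expression was deposited by the authors as FPKM for 25322 gene IDs, in 1 table per breed with a column per library. Per the submitters' processing notes, TopHat, Cufflinks 2.2.1 and the Sscrofa10.2 genome were used. The annotation, options and filters are not given in the sources used here. Symbols were found for 11804 IDs in a separate list of names, with no coordinates used. Read counts were not analysed here, so depth and counting error are unknown, and errors are those between breeds.

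FPKM were scaled by median ratios over the 83 single-tissue libraries. Genes reaching 1 FPKM in 3 or more libraries were fitted on log2(scaled FPKM + 1) with limma 3.58.1 (mean-variance trend, robust fit), run under R 4.3.3 together with statmod (version 1.5.0) and data.table (version 1.17.8). Breed was a block and the 8 tissue classes were the groups. The 2 muscles of a breed entered as separate libraries of 1 class, so standard errors against muscle may be too small. P-values are two-sided, adjusted by Benjamini and Hochberg. Tables and figures used Python 3.11.15, numpy 2.4.6, pandas 2.3.3 and matplotlib 3.10.9, and the scripts were tested on simulated data. Heart deviated together with another tissue of the same breed (median correlation over genes 0.205, range -0.104 to 0.392, above 0.1 in 63 of 71 pairs, against a median of -0.0254 between breeds). The pairing comes from the breed names, not from a statement that 1 animal was used.

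The members and the 37 gene lists, with 361 of 523 symbols matched, were chosen with earlier results of these data known. Named genes had a symbol and were the 4 markers, the 25 with the largest smallest difference over the 7 classes, 12 each of those lower and neither against muscle, those lowest in heart, up to 6 per list with the largest difference, isoform pairs, and the 6 most and 6 least variable. A few genes that the rule named are not reported here. HK1, HK2, PGAM1, ENO1, NEB, PDLIM5, CACNB2, MYOD1, MYF6, SLN, GJA5 and HCN4 were named after their values were seen. Alternatives were other scalings, pseudocounts, filters, blocks, classes, thresholds and libraries.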

Additional observations from a re-analysis of the deposited data

Results flagged for a closer look

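In 217 named genes, the highest or lowest heart was compared with the others by the gap to its neighbour as a share of the range. In 20 genes 1 heart stood apart by Dixon's criterion for 9 samples, and chance alone flags about 1 in 20 groups. That rate need not hold here, since some of these genes, MR1 among them, were named for their spread between hearts. Several flagged values lie below 1 scaled FPKM, where the counting error is unknown. Berkshire stood apart in 5 genes, Hampshire in 4, Landrace in 3, Large White, Piétrain and Meishan in 2 each, and Jinhua and Rongchang in 1 each. All values are scaled FPKM, each set beside the median of the other 8 hearts.

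The Berkshire heart was high for ACTA1, the skeletal actin, at 19310 against 8220, for CSRP3, the muscle LIM protein, at 1568 against 926, and for VCL, vinculin, at 79.97 against 48.7. It was also high for CNN1, a smooth muscle calponin, at 214 against 34.1, and for ATP2A1, the skeletal calcium pump, at 0.757 against 0.0215. The same heart had the highest NPPB, at 436, without standing apart by the criterion. In Piétrain HEY2, the ventricular Notch target, was 97.8 against 25.7, and CLDN4, an epithelial claudin, 2.39 against 0.304.

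The Hampshire heart was low for ADRA1B, an alpha-adrenergic receptor, at 1.48 against 8.72, and high for CDH1, the epithelial cadherin, at 1.48 against 0.227. Its TTR, the liver carrier transthyretin, was 0.694 and its AHSG, a liver glycoprotein, 1.39, where the median of the other hearts was 0 for both. In Landrace GATA5 was 0.289 against 0.0559, CACNA1D, a calcium channel, 0.174 against 0.0619, and PRPH, a nerve filament gene, 0.319 against 0.108. Large White was high for EPCAM at 0.2915 against 0.0555 and low for HSPB8, a small heat shock protein, at 129 against 221.

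The Meishan heart was low for ESRRG, an energy regulator, at 4.39 against 6.39 and for ACTA2, the smooth muscle actin, at 41.1 against 67.5. In Jinhua IER2, an immediate early gene, was 5.28 against 8.59. MR1 was 0.551 in the Rongchang heart against 7.55.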

How the results depend on the processing

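The counts of called genes kept within 1.5 times under most alternatives. With FPKM as deposited, 18 genes were lower than all 7 classes, 2686 were higher than the organ mean, and 43 of the genes above the organs were lower than muscle. With a pseudocount of 0.1, 47 genes were lower than all 7 classes. With a log2 difference above 2, 92 genes were called over the 7 classes, 304 over the 6 organs and 0 as lower than the 7 classes, and the 304 divided into 92 higher, 21 lower and 191 neither against muscle. That 0 comes from the size limit alone, since the 10 genes passed the adjusted p in limma at a limit of 1. Of the 236 and 700 genes, 165 and 486 were shared with FPKM as deposited, and 215 and 613 with quantile normalization. With psoas major and longissimus dorsi as separate classes, 220 genes were higher and 9 lower than in every other class. The 700 genes above the organs then divided into 220 higher, 80 lower and 400 neither against muscle.

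Leaving out each breed in turn gave 229 to 239 genes over the 7 classes, 689 to 709 over the organs, 8 to 10 lower than the 7 classes, 4796 to 4940 higher and 8333 to 8564 lower than the organ mean, and 229 to 240 higher, 86 to 98 lower and 361 to 380 neither against muscle. Without the replicate block for breed, 235, 697 and 9 genes were called, 234 and 697 of them shared with the blocked fit, and 4731 and 8259 were higher and lower than the organ mean. After the data were seen, the Meishan subcutaneous adipose was left out (235, 700 and 10 genes, and 8592 lower than the organ mean), and so were the Large White and Jinhua hearts (238, 709 and 10).

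Of 5494 comparisons over 247 named values, 5387 were counted as unchanged, 96 kept the direction but lost the call, and 11 called differences turned. A change of sign in a value not called in the main fit was counted as unchanged. With FPKM as deposited the turned differences to the organ mean were -0.11 for TEK, -0.076 for RPS3, -0.21 for RPS16, -0.23 for RPL11 and -0.24 for RPL4. With quantile normalization they were -0.42 for RPS3, -0.21 for RPS16, -0.32 for RPL11 and -0.25 for RPL4. With a pseudocount of 0.1 they were 0.0095 for SHOX2 and 0.71 for WT1. The cause was not tested. Depth is unknown, so the counting error of values near 0 is unknown too, and 66 gene IDs listed at 0 in 1 heart reached 100 FPKM in another. Many cardiac genes had no ID with a symbol, and breeds stand for animals that the labels do not describe.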

Other observations

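Genes named here lay outside the rule and were chosen after their values were seen. They were picked singly from those called over the 7 other classes in limma and stand for no pathway, and levels are scaled FPKM as mean ± SD over 9 hearts. ADCY6, an adenylyl cyclase, ran from 70.9 to 133 over the hearts against 26.1 in kidney, its nearest class, and PDE3A, a phosphodiesterase that degrades cyclic AMP, had 25.1 ± 6.35 against 5.58 in ovary. KCNJ8, a subunit of the ATP-sensitive potassium channel, had 78.6 ± 20.7 against 14.1 in subcutaneous adipose. SLC4A3, an anion exchanger, had 46.8 ± 7.46 against 8.18 in ovary, and SLC41A1, a magnesium transporter, 133 ± 37.6 against 24.1 in skeletal muscle. In each of these 5 genes heart was the highest tissue in 9 of 9 breeds.

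FHOD3, a formin of the sarcomere, had 54.2 ± 7.69 in heart against 7.19 in kidney (difference 2.75 ± 0.17, limma adjusted p 1.9e-23), where DIAPH1, another formin, was among the genes lowest in heart. MYZAP, a protein of the intercalated disc, had 99.9 ± 16.2 against 16.5 in lung and 2.18 in muscle. RBM20, the splicing factor of titin, had 21.1 ± 4.15 against 8.33 in muscle, and TRIM55, a sarcomere ubiquitin ligase related to TRIM63, 66.7 ± 9.94 against 29.9. RHOT1 and TRAK1, which move mitochondria along microtubules, had 14.5 ± 2.28 and 39.3 ± 4.52 against 5.65 and 18.4 in muscle. RXRG, a nuclear receptor, and BMP5, a secreted growth factor, were highest in heart in 8 of 9 breeds, with 69.0 ± 25.1 and 22.3 ± 6.96.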
